A study of Drosophila melanogaster with 2 samples.

Results

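Among the genes whose starts were examined for binding of the tagged tna protein in Drosophila melanogaster embryos were 33 genes of the spliceosome and the Sm/LSm family, of 13968 protein-coding genes on the 7 assembled chromosome arms. They were taken by symbol from the dm6 annotation: 6 genes of the Sm ring (SmB, SmD1, SmD2, SmD3, SmE and SmF), 4 LSm genes, 12 Prp genes, 2 snRNP-U1 genes, 7 genes of splicing factor 3 (SF3) and 2 of the U2 auxiliary factor (U2AF). Binding had been profiled by chromatin immunoprecipitation and sequencing (ChIP-seq) with an antibody to GFP, in a transgenic fly line that carries tna fused to eGFP. Whole embryos of 0 to 24 h were used, chromatin was sonicated to 200 to 800 bp, and there were 2 biological replicates, which form 1 group. No control library was analysed here. Any peak therefore stands for the tagged protein in a mixture of all embryonic tissues and stages, with no untagged background beside it.

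The spliceosome removes introns from transcripts. It is built from small nuclear RNAs that carry a ring of Sm or LSm proteins, from U2-bound SF3 proteins that hold the branch point, and from Prp proteins, many of them named after yeast mutants, that assemble, drive and dismantle it. Such genes are used in nearly every cell, and in flies the promoters of widely used genes often hold the DNA replication-related element (DRE) or Motif 1 in place of a TATA box. The gene tna (tonalli) encodes a protein with the SP-RING domain of SUMO ligases, and it interacts genetically with the Brahma remodelling complex.

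The authors deposited peak lists, in which each peak has a summit and a signal given by their peak caller. The main list here held 2580 conservative peaks, reproducible between replicates at an irreproducible discovery rate (IDR) of at most 0.01. The other list from both replicates held 3500 peaks, and the lists of replicates 1 and 2 held 2214 and 2669 on the arms. Signals were compared only within a list, because no common scale is stated. Read counts are not part of the lists, so depth is unknown. A summit no farther than 500 bp from any annotated start made a gene bound, and an offset is the distance from start to summit, negative upstream.

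In the conservative list 14 of the 33 spliceosome and Sm/LSm genes were bound (42.4%), against 2541 of all 13968 protein-coding genes (18.2%). The bound genes were SmB, SmD1, SmD3, SmE, LSm-4, LSm1, Prp5, Prp38, Prp39, Prp40, Sf3a1, Sf3a2, Sf3b1 and Sf3b2. By class, 4 of 6 Sm genes, 2 of 4 LSm genes, 4 of 12 Prp genes, 4 of 7 SF3 genes, 0 of 2 snRNP-U1 genes and 0 of 2 U2AF genes were bound. The other list from both replicates held 16 of the 33 (48.5%), against 22.2% of all genes. The replicate 1 list held 14 (42.4%), against 16.4%, and the replicate 2 list held 11 (33.3%), against 17.7%. The share of these genes exceeded that of all genes in each of the 4 lists. These are descriptions of lists of genes, with no test, since 1 group of samples offers no contrast.

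**Figure D1:**
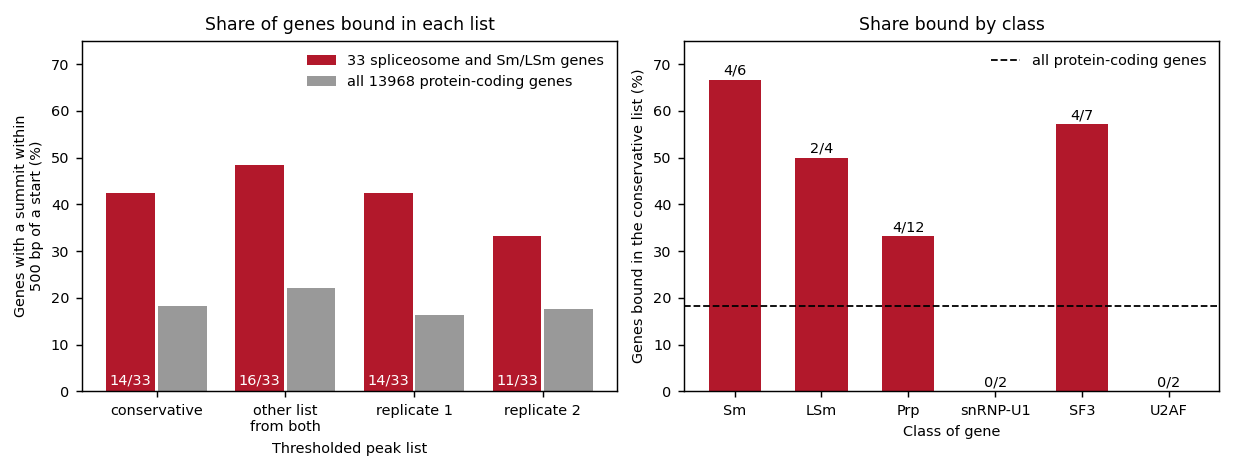
Share of genes (%) with a thresholded summit within 500 bp of a start. Left, red bars give the 33 spliceosome and Sm/LSm genes and grey bars all 13968 protein-coding genes in each of 4 lists, where the red bars stand between 33.3% and 48.5% and the grey bars between 16.4% and 22.2%. Right, red bars give each class in the conservative list with its count, and the dashed line marks the 18.2% of all genes. The snRNP-U1 and U2AF classes have 2 genes each and stand at 0.

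Promoter letters of 9 of these genes are shown as examples of promoters with the sequence words marked below. Each run goes from 100 bases before the start to 30 after it (250 before for SmB), 5′ to 3′ on the strand of the gene, from the RefSeq sequence of dm6. Capitals mark the DRE (TATCGATA), the shorter word CGATA bound by the boundary protein BEAF-32, and Motif 1 (GGTCACAC), the site of the factor M1BP, each on either strand. A DRE reads the same on both strands and holds CGATA on each, and the counts of summits and promoters with CGATA include those. The first 5 promoters were bound in the conservative list: SmE at chr2L:7885420-7885550 (minus), SmB at chr2L:10426597-10426877 (minus), Prp39 at chr3R:28812002-28812132 (plus), Sf3b2 at chr2L:3029138-3029268 (minus) and Sf3a1 at chr3R:17002325-17002455 (minus). The last 4 were not: Prp6 at chr3L:18905272-18905402 (plus), U2af38 at chr2L:294651-294781 (minus), Sf3b3 at chr3L:833355-833485 (minus) and Prp3 at chr3L:19910200-19910330 (plus).
SmE: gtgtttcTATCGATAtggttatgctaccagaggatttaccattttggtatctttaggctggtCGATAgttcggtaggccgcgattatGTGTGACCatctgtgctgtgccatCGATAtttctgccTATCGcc
SmB: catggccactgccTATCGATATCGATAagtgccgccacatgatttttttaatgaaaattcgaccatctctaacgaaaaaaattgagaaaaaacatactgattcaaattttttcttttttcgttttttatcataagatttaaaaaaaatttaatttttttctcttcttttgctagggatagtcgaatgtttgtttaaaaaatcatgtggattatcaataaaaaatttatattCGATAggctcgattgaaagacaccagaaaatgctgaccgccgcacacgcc
Prp39: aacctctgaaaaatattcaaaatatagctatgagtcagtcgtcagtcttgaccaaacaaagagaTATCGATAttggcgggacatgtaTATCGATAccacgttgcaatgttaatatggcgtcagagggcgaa
Sf3b2: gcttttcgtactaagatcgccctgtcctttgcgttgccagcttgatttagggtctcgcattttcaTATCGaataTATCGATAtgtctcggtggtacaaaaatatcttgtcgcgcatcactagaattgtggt
Sf3a1: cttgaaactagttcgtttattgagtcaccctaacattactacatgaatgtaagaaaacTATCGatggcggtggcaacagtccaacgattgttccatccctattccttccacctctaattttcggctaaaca
Prp6: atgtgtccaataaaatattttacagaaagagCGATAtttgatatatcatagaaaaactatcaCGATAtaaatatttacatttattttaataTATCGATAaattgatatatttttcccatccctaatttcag
U2af38: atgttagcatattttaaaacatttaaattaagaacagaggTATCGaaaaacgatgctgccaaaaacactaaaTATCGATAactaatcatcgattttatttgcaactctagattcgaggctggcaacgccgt
Sf3b3: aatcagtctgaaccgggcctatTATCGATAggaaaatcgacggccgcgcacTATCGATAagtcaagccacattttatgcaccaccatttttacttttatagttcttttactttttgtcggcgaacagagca
Prp3: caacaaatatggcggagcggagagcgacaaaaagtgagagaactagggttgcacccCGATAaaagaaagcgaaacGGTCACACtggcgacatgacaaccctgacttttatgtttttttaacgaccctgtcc

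The SmE run holds 1 DRE and 1 Motif 1, and that of SmB has 2 DREs that overlap far upstream and a lone CGATA near the start. In their printed runs Prp39 has 2 DREs, Sf3b2 has 1, and Sf3a1 has a single CGATA with neither longer word. Sf3b3, unbound in the conservative list but listed in each single replicate, also has 2 DREs. The unbound Prp6 and U2af38 have 1 each. The printed run of Prp3, also unbound, has 1 Motif 1 and 1 CGATA. Promoters with the same words thus stood on both sides of the threshold.

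The Sm proteins form the ring on U1, U2, U4 and U5 RNAs, and their genes had the strongest peaks of the classes, with a median signal of 350.0 over the 4 bound. SmE had a signal of 462 at an offset of −21 bp, in the peak chr2L:7885339-7885576, which lies inside the gene body of CG7102. Its replicate values were 265 in replicate 1 and 228 in replicate 2. This signal was at or above that of 91.6% of the 2541 bound genes. SmD3 had a signal of 426 at −100 bp, with 201 in replicate 1 and 231 in replicate 2, and its summit fell in the body of the neighbouring Oda gene. A weaker SmD3 peak of 31.3 lay at 104 bp, with a deposited q-value of 0.665.

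SmB had 2 peaks, whose intervals overlap. The stronger, chr2L:10426527-10426681, had a signal of 274 at −32 bp, and the second had 226 at −232 bp, over the overlapping DREs printed for SmB. The strongest listed peak had 208 at −54 bp in replicate 1, at or above 83.8% of the bound genes of that list, and 81.5 at 33 bp in replicate 2, at or above 26.8% of those of its own. These are summits at different places, and the lists share no stated scale. In replicate 2 a stronger ranked peak of 96.6 at −241 bp was not in the thresholded list. SmD1 had a signal of 148 at −33 bp, in chr3L:12734439-12734848. It was listed in replicate 1 with 80.4, and in replicate 2 only a ranked peak of 81.7 was present, at an IDR of 0.0183.

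SmD2 and SmF were not bound in the conservative list. SmD2 was nonetheless listed from both replicates at 128 and in replicate 1 at 81.5, while replicate 2 had only a ranked 44.9 at an IDR of 0.359. SmF, with 43.3 at an IDR of 0.0761 in the ranked pair, was in none of the 4 lists. The seventh ring protein, SmG, is encoded by the gene annotated as SNRPG, which the symbols used here do not take in. It was bound in none of the 4 lists, and its strongest ranked signal was 83.8 at an IDR of 0.0113. The symbols, read with their letter case, also leave out 3 genes spelled Lsm. Of these Lsm10, of the U7 particle that processes histone messages, was bound in the conservative list, with a signal of 166 at 73 bp, and Lsm11, of the same particle, and Lsm12a were not.

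LSm proteins form a like ring on U6 RNA or, with LSm1, on messenger RNAs due for decay. LSm-4 had a signal of 132 at 37 bp, in chr2L:10404961-10405370, within a 5′ untranslated exon. It was listed in replicate 2 at 92.0, and replicate 1 had a ranked 42.0 at an IDR of 0.0515. The start of LSm-4 is shared with CG17768, so the peak cannot be given to one of them. LSm1 had a signal of 139.5 at −391 bp, listed in replicate 1 at 76.3, and replicate 2 had only a ranked 27.6 at 180 bp with an IDR of 0.713. The conservative summit lay in a coding exon of Xpd, 62 bp from the start of Xpd, a helicase gene of transcription and repair. Neither LSm gene had a listed peak in both single replicates. LSm3 was listed once, in the other list from both replicates, at 18.1, and LSm7 in none.

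**Figure D2:**
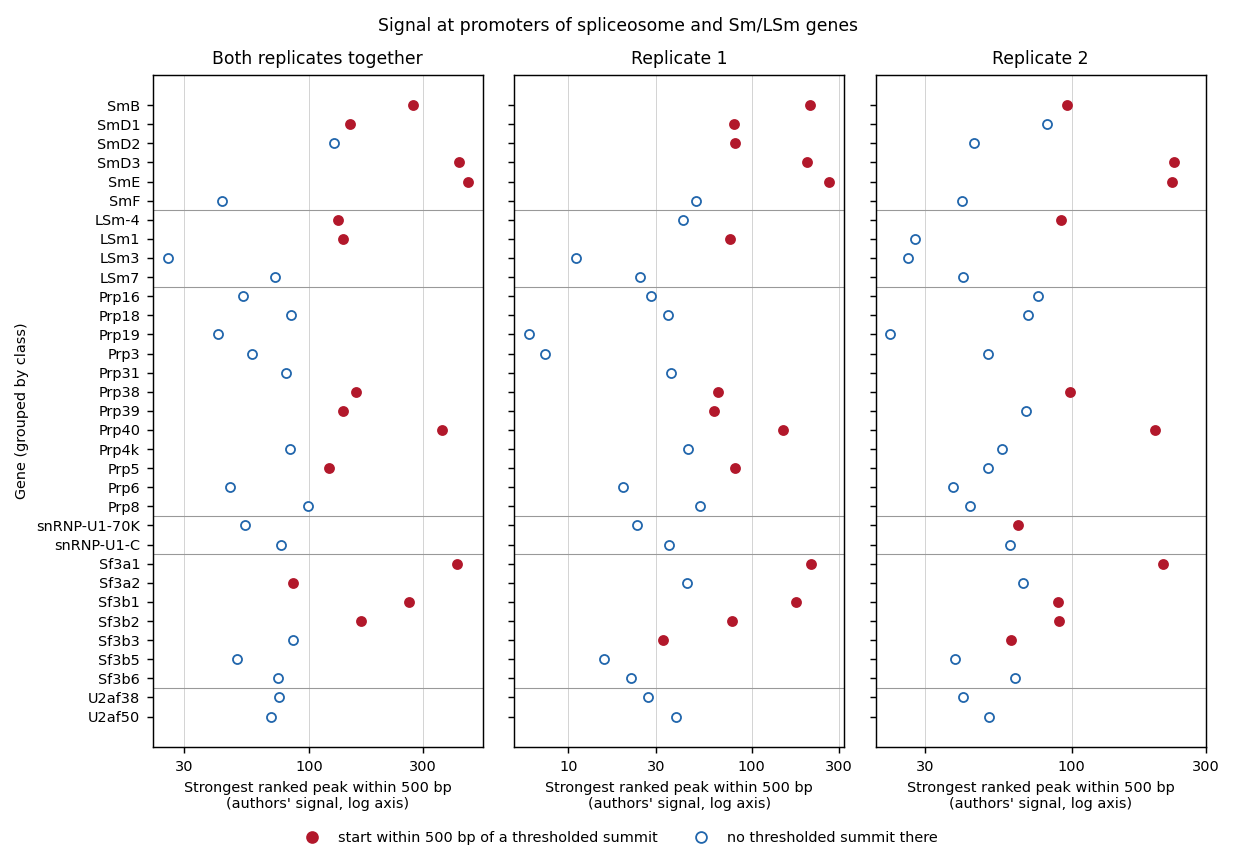
Strongest ranked peak within 500 bp of a start of each of the 33 genes (authors' signal, log axis) in the pair of replicates, in replicate 1 and in replicate 2. Filled red points are genes with a thresholded summit within 500 bp in the matching list, open blue points the rest, and Prp31 has no replicate 2 point. SmE, SmD3, Sf3a1 and Prp40 stand farthest right in the pair panel, from 359 to 462. SmB is drawn at 96.6 in replicate 2, above its listed 81.5.

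Among the 12 Prp genes, 4 were bound. Prp40, whose yeast namesake is a U1 protein that bridges the intron ends, had the highest signal of them, 359 at −56 bp in chr2L:3023069-3023298. Its replicate values were 149 in replicate 1 and 198 in replicate 2. The start of alpha4GT1 lay nearer to that summit, 29 bp away. Prp38, in yeast a factor of spliceosome activation, had 158 at −40 bp, with 65.2 in replicate 1 and 99.1 in replicate 2. The start of shrb was 2 bp from that summit. For both genes the listed peak thus sits between divergent starts and closer to the partner.

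Prp39, named after another yeast U1 protein, had 139.5 at −22 bp in chr3R:28811875-28812284, between the 2 DREs of its printed promoter. Replicate 1 listed it at 62.2, and replicate 2 had a ranked 68.6 at an IDR of 0.0141. Prp5, a helicase that in yeast helps U2 onto the branch point, had 121 at −2 bp in chrX:15344962-15345371. Replicate 1 listed it at 80.9, and replicate 2 had a ranked 50.4 at an IDR of 0.290. Both were therefore listed in 1 single replicate. The deposited q-value of the Prp5 peak was 0.115.

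The other 8 Prp genes were unbound in the conservative list. They include Prp8, the core protein of U5, Prp3, Prp6 and Prp31 of the U4/U6.U5 tri-snRNP, Prp16 and Prp18, second-step factors in yeast, the ubiquitin ligase gene Prp19 and the kinase gene Prp4k. Prp18 alone of these was in another list, that from both replicates, at 84.5 and −421 bp. Ranked signals of the pair went from 41.7 at Prp19 to 99.2 at Prp8. Prp8 had 52 in replicate 1 and 43.3 in replicate 2, below the listed values of the bound Prp genes in each replicate.

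SF3 proteins belong to U2 and hold the branch point. Sf3a1 had a signal of 415 at −25 bp, in chr3R:17002282-17002519, with 210.5 in replicate 1 and 211 in replicate 2, and a second peak of 20.9 at −232 bp with a q-value of 0.689. Sf3b1, a core SF3b subunit, had 263 at −109 bp in chr2L:568026-568435, with 175 in replicate 1 and 89.2 in replicate 2. Sf3b2 had 166 at −33 bp in chr2L:3028996-3029405, with 77.9 in replicate 1 and 90.4 in replicate 2. These 3 genes were in all 4 lists. Sf3a2 differed from them: its strongest peak of 86.2 lay at 212 bp, in its own coding exon, with a q-value of 0.402, a second of 38.6 lay at −32 bp, and neither it nor any other peak was listed there outside the conservative list. Sf3b3 had the opposite record, listed in replicate 1 at 32.8 and in replicate 2 at 60.9 but in neither list made from both. Sf3b5 and Sf3b6 were in none.

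The U1 proteins recognise the start of the intron and the U2AF pair its end. For snRNP-U1-70K only the replicate 2 list had a peak, of 64.4 at −160 bp. The snRNP-U1-C gene was in no list, and its strongest ranked peak had 76.7 at an IDR of 0.310. U2af38 and U2af50 were in no list either, with ranked signals of 75.1 at an IDR of 0.168 and 69.7 at an IDR of 0.0976. In these 2 classes no gene was called bound in any list made from both replicates.

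Of the 14 bound genes, 8 were listed in both single replicates as well (57.1%), against 1668 of all 2541 bound genes (65.6%). They were SmB, SmD3, SmE, Prp38, Prp40, Sf3a1, Sf3b1 and Sf3b2. Another 4 were listed in replicate 1 alone (SmD1, LSm1, Prp5 and Prp39), LSm-4 in replicate 2 alone and Sf3a2 in neither. A total of 19 of the 33 genes were bound in at least 1 of the 4 lists, and 14 in none.

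By conservative signal the bound genes fell into a stronger and a weaker set. SmE, SmD3, Sf3a1, Prp40, SmB and Sf3b1 had signals of 263 or more, and the other 8 had 166 or less. In the replicate 1 list the same 6 stood highest, the lowest of them being Prp40 at 149. The split did not hold in the replicate 2 list. There SmB (81.5) and Sf3b1 (89.2) fell below Prp38 (99.1), LSm-4 (92.0) and Sf3b2 (90.4). SmE, SmD3, Sf3a1 and Prp40 still stood highest in it. In the conservative list the median of the 14 was 162 (quartiles 139.5 and 338), against 197 (quartiles 141 and 297) for the 2527 other bound genes. The summit offset had a median of −32.5 bp (quartiles −52 and −21.2), against −43.0 bp (quartiles −104 and −6.00). The summit was upstream of the start at 12 of 14 (85.7%), against 77.3%, and within 100 bp of it at 11 of 14 (78.6%), against 68.4%. A second listed peak within 500 bp was present at 4 of 14 (28.6%: SmB, SmD3, Sf3a1 and Sf3a2), against 10.5%. At each of these 4 genes the 2 peak intervals overlap, so they need not be separate sites. The weaker of the paired peaks had q-values of 0.651 to 0.689 at SmD3, Sf3a1 and Sf3a2. With the replicate 1 list 1 of 14 had a second peak (SmB), against 11.1%, and with the replicate 2 list 0 of 11, against 12.4%. The order of the median signals also depended on the threshold: at an IDR of 0.001 it was 387 over the 6 genes, against 295 over all bound genes, and at a q-value of 0.05 it was 263 over 11, against 234. The medians of position differed by less than the quartile ranges.

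**Figure D3:**
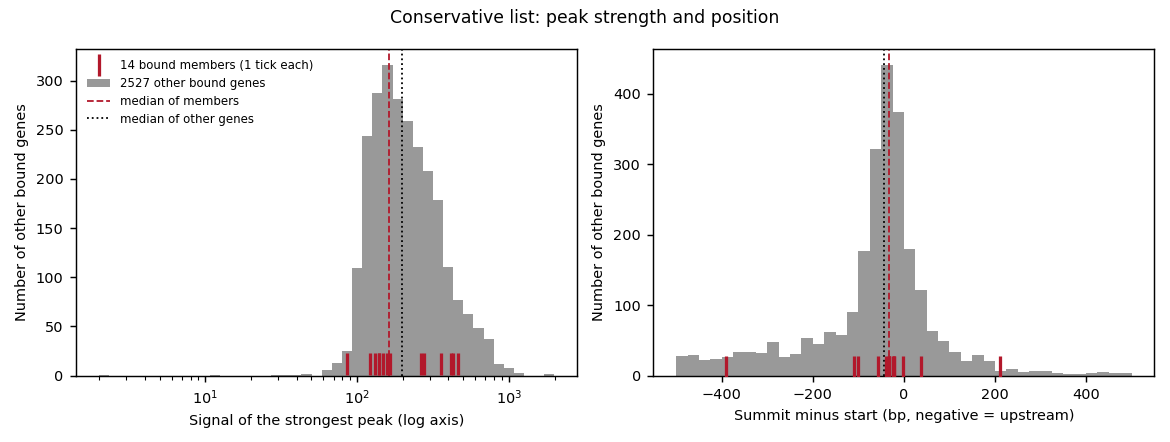
Left, signal of the strongest conservative peak per bound gene (log axis). Right, distance from start to that summit in bp, negative upstream. Grey histograms give the 2527 other bound genes, red ticks the 14 bound spliceosome and Sm/LSm genes, and vertical lines the medians, 162 (dashed) and 197 (dotted) for signal and −32.5 and −43.0 bp for offset. Nearly all ticks lie just upstream of the start, with LSm1 at −391 bp and Sf3a2 at 212 bp apart from the rest.

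Near the summits CGATA was the commonest of the 7 words searched on both strands. It lay within 100 bp of 13 of the 14 strongest summits (92.9%), all but that of Sf3a2, against 80.8% of the 2527 other bound genes. The DRE was there at 3 of 14 (21.4%: SmE, Prp39 and Sf3b2), against 31.1%, and Motif 1 at 2 of 14 (14.3%: SmE and Sf3b1), against 7.40%. The E-box CAGCTG was present at 4 of 14 (28.6%), against 16.5%, but within 50 bp at 0 of 14, against 9.06%, and within 200 bp at 4 of 14, against 26.7%. The word TATAAA lay within 100 bp at 4 of 14 (28.6%), against 22.6%. It was matched on either strand at any place in that reach, so a match need not be a TATA box. GAGAG was at 0 of 14, against 19.2%, and CACGTG at 0 of 14, against 3.84%. The 3 summits with a DRE spanned signals of 139.5 to 462, so the word occurred in both the stronger and the weaker set.

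In promoters, taken as 250 bp before to 50 bp after any start, 25 of the 33 genes held CGATA (75.8%), against 53.1% of all genes. Of the 25, 13 were bound (2221 of all 7415 genes with the word were), and of the 8 without it 1 was bound, LSm1 (4.88% of all genes without it were). A DRE was in 8 of 33 (24.2%), against 10.2%, and Motif 1 in 9 of 33 (27.3%), against 8.70%. Of the 8 with a DRE, 4 were bound (SmB, SmE, Prp39 and Sf3b2) and 4 were not (Prp6, snRNP-U1-C, Sf3b3 and U2af38), while 60.4% of all genes with a DRE were bound. Of the 9 with Motif 1, 3 were bound (SmE, Sf3a2 and Sf3b1), and 24.2% of all genes with it were. Of the 25 genes without a DRE 10 were bound, against 13.4% of all genes without one. TATAAA, on either strand and at any place in the promoter, was in 20 of 33 (60.6%), against 51.3%. Of the 20, 7 were bound, against 18.2% of all genes with the word. GAGAG was in 6 of 33 (18.2%), against 36.3%. It was in 0 of the 14 bound, against 892 of all 2541 bound genes.

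**Figure D4:**
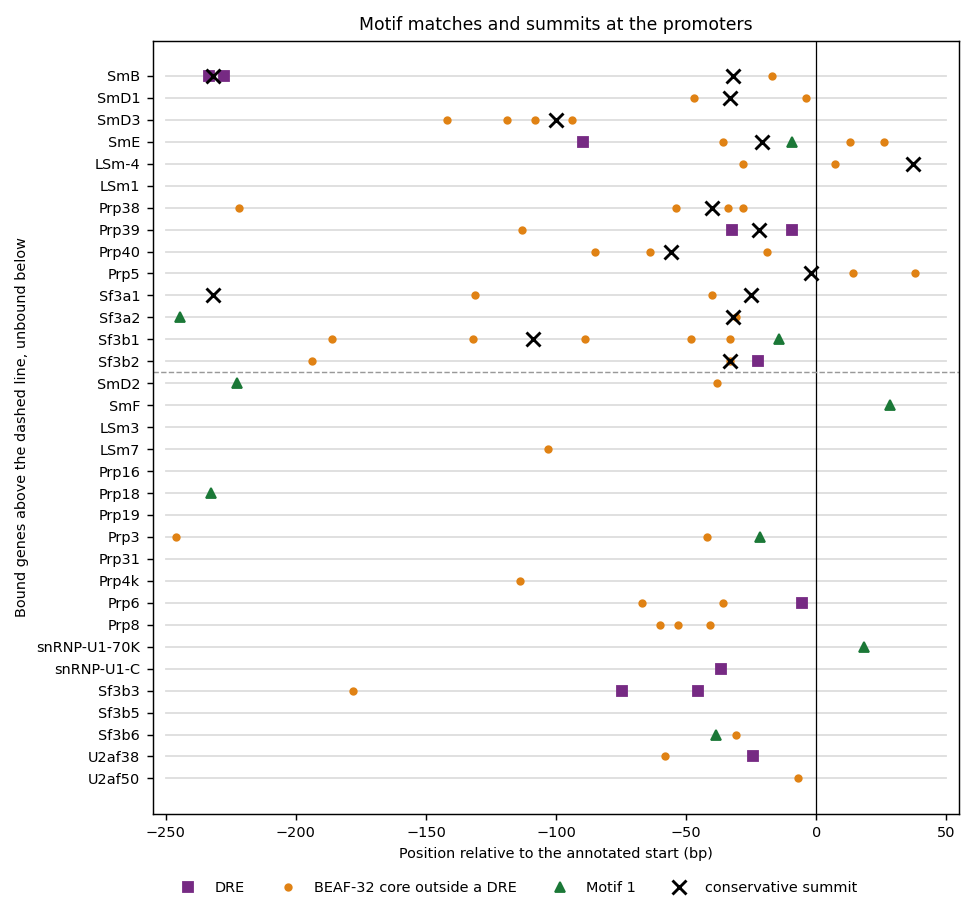
Word matches and conservative summits along the promoters of the 33 genes, in bp from the annotated start (the start nearest the summit for bound genes, the most upstream start for the others). Squares are DREs, dots CGATA outside a DRE, triangles Motif 1 and crosses summits, with bound genes above the dashed line. Summits of LSm1 at −391 bp and Sf3a2 at 212 bp, and that of SmD3 at 104 bp, fall outside the range drawn. The far SmB cross lies on its 2 DREs, and DREs also appear below the line at Prp6, snRNP-U1-C, Sf3b3 and U2af38.

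Many of these genes share a promoter region with a divergent neighbour. A protein-coding start on the other strand lay within 500 bp upstream at 22 of 33 (66.7%), against 27.3% of all genes. Of these 22, 11 were bound, against 33.9% of all genes with such a neighbour, and of the 11 others 3 were bound (27.3%), against 12.3%. The gaps were 53 bp at SmE (CG34132), 85 bp at Prp40 (alpha4GT1) and 85 bp at Sf3b2 (CG17219), and 42 bp at Prp38 (shrb). A ChIP-seq peak in such a gap cannot be told apart between the 2 starts. Where the summit had to have the start of the named gene as its nearest, ties kept, 11 of 33 remained (33.3%), against 13.9%. LSm1, Prp38 and Prp40 left the count. LSm-4 stayed in it by a tie with CG17768, whose start it shares. Among genes with 1 annotated start, 13 of 28 were bound (46.4%), against 15.2%.

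The 33 genes are spread over 5 arms. Peaks not yet placed span chr2R:12168511-12168745 at SmD3, chr2R:9143711-9144120 at Prp38, chr2R:21170858-21171267 at LSm1 and chr3L:12813602-12814011 at Sf3a2. On 2L 6 of 9 were bound, against 17.4% of all genes of the arm, on 2R 3 of 6, against 18.8%, and on 3L 2 of 8, against 16.1%. On 3R 2 of 7 were bound, against 18.3%, and on X 1 of 3, against 21.4%. Some lie near each other: SmB and LSm-4 are 20.3 kb apart on 2L, Prp8 and SmD3 5.73 kb on 2R, and SmD3 and SmF 13.8 kb. Prp40 and Sf3b2 overlap by 188 bp at their ends and have separate bound starts. Of the neighbours Prp8 and SmD3, SmD3 was bound and Prp8 was not, and SmF was not.

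The ranked list of the pair is long, with 114422 peaks on the arms and signals down to 2.00. Each of the 19 unbound genes had at least 1 of these peaks within 500 bp of a start, as did 71.1% of the 11408 other unbound genes. The strongest signal had a median of 71.9 (25.7 at LSm3 to 128 at SmD2), against 55. A peak at an IDR of at most 0.05 was present at 6 of 19 (31.6%), against 9.19%. These were SmD2 (signal 128, IDR 0.0197), Prp8 (99.2, 0.0297), Sf3b3 (85.9, 0.0489), Prp18 (84.5, 0.0302), Prp4k (83.8, 0.0117) and snRNP-U1-C (68.8, 0.0390). The nearest conservative summit lay 2583 bp (Prp3) to 40453 bp (snRNP-U1-C) from a start of the unbound genes. On the other side of the threshold, the bound genes closest to it were Prp5 at an IDR of 0.00950 and Sf3a2 at 0.00838.

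Other rules moved the count but kept the share above that of all genes in each case run. Windows of 100, 250 and 1000 bp gave 12 (36.4%), 13 (39.4%) and 14 (42.4%) bound, against 12.9%, 15.9% and 20.5% of all genes. The most upstream start alone gave 14, against 17.0%, a peak interval over a start 13, against 14.5%, and 1 peak per pair of replicate peaks 14, against 18.1%. At a q-value of at most 0.05 there were 11 (33.3%), against 13.9%. A stricter IDR of 0.001 left 6 (18.2%), against 9.45%, and these were the 6 genes of the stronger set. The IDR and the signal of a peak are not independent, so this is no separate support for that split. A looser IDR of 0.05 gave 20 (60.6%), against 25.7%.

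Outside the symbols used here, 71 further splicing and snRNP assembly genes were found of 86 listed from general knowledge. Of the 71, 27 were bound (38%), against 18.2% of all genes. Of 11 further U1, U2, U5 and tri-snRNP genes 5 were bound, the strongest being U4-U6-60K with a signal of 343 (nearer the start of CG7564), snf with 243, Dim1 with 234 and U2A with 225. Signals of the genes that follow stand in brackets. Of 13 genes of the Prp19 complex and related proteins 4 were bound: crn (287), l(1)10Bb (249, nearer Gapvd1), cyp33 (230.4) and Bx42 (179, nearer Arfrp1). Of 6 genes for RNA helicases and second-step factors, Slu7 (264) and Hel25E (158, nearer Lam) were bound. The list of the exon junction complex, which marks spliced junctions, and of related factors had 4 of 6 bound: Pym (731), mago (389, nearer Tmtc3), Acn (329.6) and tsu (199.6). The signal of Pym exceeded those of all 14 bound spliceosome and Sm/LSm genes.

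Of 12 genes for SR and SR-related proteins, which steer splice site choice, 6 were bound, with tra2 (326), SF2 (275, nearer pad), tra (141) and nito (140.2) the strongest. SF2 and tra were listed in replicate 1 but not in replicate 2. The list of the SMN complex, which loads Sm rings, of Sm methylation and of related factors had 3 of 10 bound. These were coil (217, nearer Socs44A), Smn (206) and vls (145, listed in replicate 1 but not in replicate 2). Of 13 hnRNP and splicing regulator genes 3 were bound: heph (469), mub (272) and Hrb98DE (161). The shares of the 7 lists went from 23.1% of the hnRNP list to 66.7% of the exon junction list, against 18.2% of all genes.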

How the data were processed

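ChIP-seq peak lists of 2 biological replicates were used. Per the notes deposited with the lists, they are on dm6, and 1 thresholded and 1 ranked list came from each replicate's own alignments and 2 of each from both. For the aligner and peak caller, names were not given in the sources used here. Each deposited signal is the peak caller's value, with no scaling between lists stated. Also deposited were the −log10 q-value of each peak and, in ranked lists, the −log10 of its global IDR. All 2580 conservative peaks were found in the ranked list of the pair at a −log10 IDR of at least 2.00.

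Starts came from Ensembl release 115 in dm6 coordinates, and letters from RefSeq. Tables were computed with Python 3.11.15 and numpy 2.4.6, after a trial on simulated data. No test was made: there is 1 group. The members and lists were chosen with earlier results of these data known. All members were named, with their values where bound or where a ranked peak had an IDR of at most 0.05, and up to 4 bound genes of each further list. Symbols of those lists that the annotation lacks were left out. Alternatives covered the list, window, start, threshold and motif distance.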

Additional observations from a re-analysis of the deposited data

How the results depend on the processing

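The count of bound genes stayed within 1.5 times of 14 in 12 of 13 alternatives and was 6 at an IDR of at most 0.001. Over both single-replicate lists it ranged from 11 to 14. A count moved when it changed by over 1.5 times, and a median when it changed by more than the SD between the medians of the single lists, 7.67 for signal and 11.3 bp for offset. By these limits 25 of 121 alternative values moved and 96 did not. LSm fell to 1 in each single list, with windows of 250 and 100 bp, with the own start nearest, with the interval over a start and under the q-value limit of 0.05, and to 0 at an IDR of at most 0.001. Prp ranged from 2 to 4 over the single lists, and was 2 with the own start nearest, 1 at an IDR of at most 0.001 and 7 at 0.05. The snRNP-U1 count ranged from 0 to 1 over the single lists and was 1 at an IDR of at most 0.05. SF3 was 2 at an IDR of at most 0.001. The median signal was 153 in the other list from both, 81.2 to 92.0 in the single lists on their own scales, 387 and 139.5 at an IDR of at most 0.001 and 0.05, and 263 under that q-value limit. It stood above the median of all bound genes at an IDR of 0.001 (295) and under the q-value limit (234), and below it in the main list. The median offset was −56.0 to −40.0 bp in the single lists and −44.0 bp at an IDR of at most 0.001. Motif 1 was within 50 bp of 1 summit. No paired analysis was possible because there is 1 group and no test. With 2 replicates, no read counts and no control library, neither the error of a signal nor the level without the tag could be given.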
